A study of Mus musculus with 18 samples.

Results

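A group of 7 genes of the primitive streak and its mesoderm was followed through 16 RNA-seq libraries of mouse embryonic stem cells (mESCs) in which *Stag1*, a subunit of the cohesin complex, was or was not knocked down. The genes were *Wnt3*, *Fgf8*, *T*, *Eomes*, *Mixl1*, *Evx1* and *Mesp1*, taken as a list of names, and all 7 were among the 18659 genes of the deposited table. The cells were male E14 mESCs grown on gelatin with serum (FCS) and LIF, and every library was made from total RNA depleted of rRNA. Cells of the siRNA libraries had been transfected for 24 h. Scrambled siRNA (scr) was present in each of 3 replicate sets. The siRNAs to *Stag1* were SP, a pool of commercial duplexes, in all sets, and 3p (a pool to the 3′ end of the transcript), 5p (1 custom duplex to the 5′ end) and SATS (an enzymatically prepared mixture to the 5′ UTR of an upstream start site) in sets 2 and 3. Set 1 comprised a single scr library beside SP 1a, 1b and 1c, 3 libraries whose relation to each other is not given in the sources used here. Set 2 also held untreated cells and set 3 cells with siRNA to luciferase, so each of these controls is a single library. The study calls its RNA-seq replicates independent. Whether libraries of a group came from separate cultures is not given in the sources used here, so p-values measure the spread between these samples, all of 1 cell line.

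At gastrulation, cells of the posterior epiblast enter the primitive streak and leave it as mesoderm or definitive endoderm. *Wnt3* and Nodal signals start the streak, the T-box factors *T* (Brachyury) and *Eomes* and the homeobox factors *Mixl1* and *Evx1* are switched on in it, *Fgf8* is needed for cells to move away from it, and *Mesp1* marks the earliest mesoderm of the heart. Serum-grown mESC cultures are mixed, and transcripts of streak genes are commonly detected in them at low levels. In bulk RNA, fewer cells with a transcript and less of it per cell cannot be told apart.

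The values are reads per gene divided by 1 size factor per library ("normalized value"), from which whole reads were recovered. Library totals were 9023224 to 14040830 reads in set 1, of which *Rn45s*, the rRNA precursor, took 69.2% to 79.1%, and 32137666 to 45660840 in sets 2 and 3, with 14.7% to 23.9% on *Rn45s*. The 7 genes together had 19 to 71 reads per library in set 1 and 1395 to 2296 in sets 2 and 3. *Stag1* stood at 25.4% to 32.8% of scr of the same set in SP 1a to 1c, at 17.3% to 23.5% in the SP, 3p and 5p libraries of sets 2 and 3, and at 50.5% and 49.7% in SATS. The pluripotency genes *Pou5f1* (7128 to 11940), *Sox2* (2191 to 7232), *Nanog* (2011 to 5819) and *Zfp42* (1818 to 7098) were high in all 16 libraries.

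The 7 genes lie on 7 chromosomes. In GRCm38 (GENCODE annotation), *Wnt3* (ENSMUSG00000000125.5) lies at chr11:103774150-103817957 on the plus strand, *Fgf8* (ENSMUSG00000025219.13) at chr19:45736798-45742915 on the minus strand and *T* (ENSMUSG00000062327.10) at chr17:8434423-8442496 on the plus strand. *Eomes* (ENSMUSG00000032446.14) lies at chr9:118478212-118486132 on the plus strand, *Mixl1* (ENSMUSG00000026497.7) at chr1:180693043-180697034 on the minus strand, *Evx1* (ENSMUSG00000005503.8) at chr6:52313498-52318378 on the plus strand and *Mesp1* (ENSMUSG00000030544.5) at chr7:79792241-79793788 on the minus strand. *Eomes* is overlapped on the other strand by *Gm33460* and *Evx1* by *Evx1os*, which have no row in the table. Strand was used in counting paired-end libraries, and the sources used here do not say which libraries those were, so reads of an antisense partner cannot be told apart where strand was not used.

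The 250 bases before the start sites of *Wnt3*, *T*, *Eomes* and *Evx1*, the 4 genes that differed between sets 2 and 3, are shown with the motifs of a pair of factor families at work in the streak, since *Wnt3* is a Wnt ligand and *T* and *Eomes* are T-box factors. RefSeq windows on GRCm38.p6 were matched for 5 of the 7 genes, and not for *Mixl1* and *Fgf8*. Start sites here are those of the windows, and for *Wnt3*, *Eomes* and *Mesp1* they differ from the GENCODE starts given above. The *Wnt3* window runs past its GENCODE start. Capitals mark TCAAAG, the core bound by TCF/LEF factors that act at the end of the Wnt pathway, and AGGTGT, a T-box motif, each searched on both strands. The windows are chr11:103773925-103774174 for *Wnt3*, chr17:8434173-8434422 for *T*, chr9:118477939-118478188 for *Eomes* and chr6:52313248-52313497 for *Evx1*, all on the plus strand and written 5′ to 3′.

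*Wnt3*: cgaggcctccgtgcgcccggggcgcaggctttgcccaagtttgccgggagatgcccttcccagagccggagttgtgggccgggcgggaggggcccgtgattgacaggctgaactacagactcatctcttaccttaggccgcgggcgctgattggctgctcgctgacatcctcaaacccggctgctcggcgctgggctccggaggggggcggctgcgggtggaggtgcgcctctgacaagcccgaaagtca

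*T*: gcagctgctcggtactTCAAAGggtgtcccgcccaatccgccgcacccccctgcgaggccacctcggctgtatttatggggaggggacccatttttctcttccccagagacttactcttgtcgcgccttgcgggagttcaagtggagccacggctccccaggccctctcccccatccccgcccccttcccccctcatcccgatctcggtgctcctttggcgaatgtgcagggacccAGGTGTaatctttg

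*Eomes*: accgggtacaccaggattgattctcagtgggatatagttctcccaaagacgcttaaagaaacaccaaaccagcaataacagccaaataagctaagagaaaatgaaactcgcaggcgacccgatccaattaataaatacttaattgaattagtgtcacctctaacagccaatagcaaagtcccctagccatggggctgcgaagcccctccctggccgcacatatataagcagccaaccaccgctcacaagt

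*Evx1*: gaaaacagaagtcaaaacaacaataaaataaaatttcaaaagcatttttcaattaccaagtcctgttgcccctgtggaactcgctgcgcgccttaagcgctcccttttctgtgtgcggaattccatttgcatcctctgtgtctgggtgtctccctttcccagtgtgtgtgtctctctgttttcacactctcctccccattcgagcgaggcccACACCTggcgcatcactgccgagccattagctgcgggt

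The window of *T* held both motifs, TCAAAG with its first base 234 bases before the start and AGGTGT 14 bases before it. *Evx1* held AGGTGT on the other strand (printed as ACACCT), 38 bases before the start. Neither motif was in the windows of *Wnt3* and *Eomes*, which says only that these letters are absent there. In *Mesp1* (chr7:79793591-79793840, minus strand), TCAAAG was found 72 bases before the start of the window's transcript and on the other strand at 31, and AGGTGT at 233. Most of this window lies inside the GENCODE gene, which starts at 79793788 on that strand. The matches at 72 and 31 are thus downstream of the GENCODE start. Of all 32851 windows of this length, 13.8% held TCAAAG and 11.8% held AGGTGT on either strand, so such matches are common.

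The 7 genes spanned a wide range of levels, with *Wnt3* and *T* highest and *Mesp1* close to absent. Per kb of exon, the normalized value over the 12 libraries of sets 2 and 3 was 108 ± 21.4 (SD, n = 12) for *Wnt3*, 83.1 ± 21.6 for *T*, 36.6 ± 13.4 for *Eomes*, 16.9 ± 4.13 for *Fgf8*, 10.3 ± 3.98 for *Evx1*, 9.77 ± 1.80 for *Mixl1* and 0.944 ± 0.518 for *Mesp1*. Among neighbours in that order, the range of *T* (64.5 to 124 per kb) lay above that of *Eomes* (22.3 to 57.8 per kb), and the range of *Mixl1* (5.85 to 12.9 per kb) lay above that of *Mesp1* (0.288 to 2.18 per kb). The ranges of *Wnt3* and *T*, of *Eomes* and *Fgf8*, of *Fgf8* and *Evx1* and of *Evx1* and *Mixl1* overlapped, so these neighbours were not separated by their spread. *Mesp1* had 1 to 6 reads per library in sets 2 and 3 and 0 or 1 in set 1, and its values are those of single reads.

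**Figure D1:**
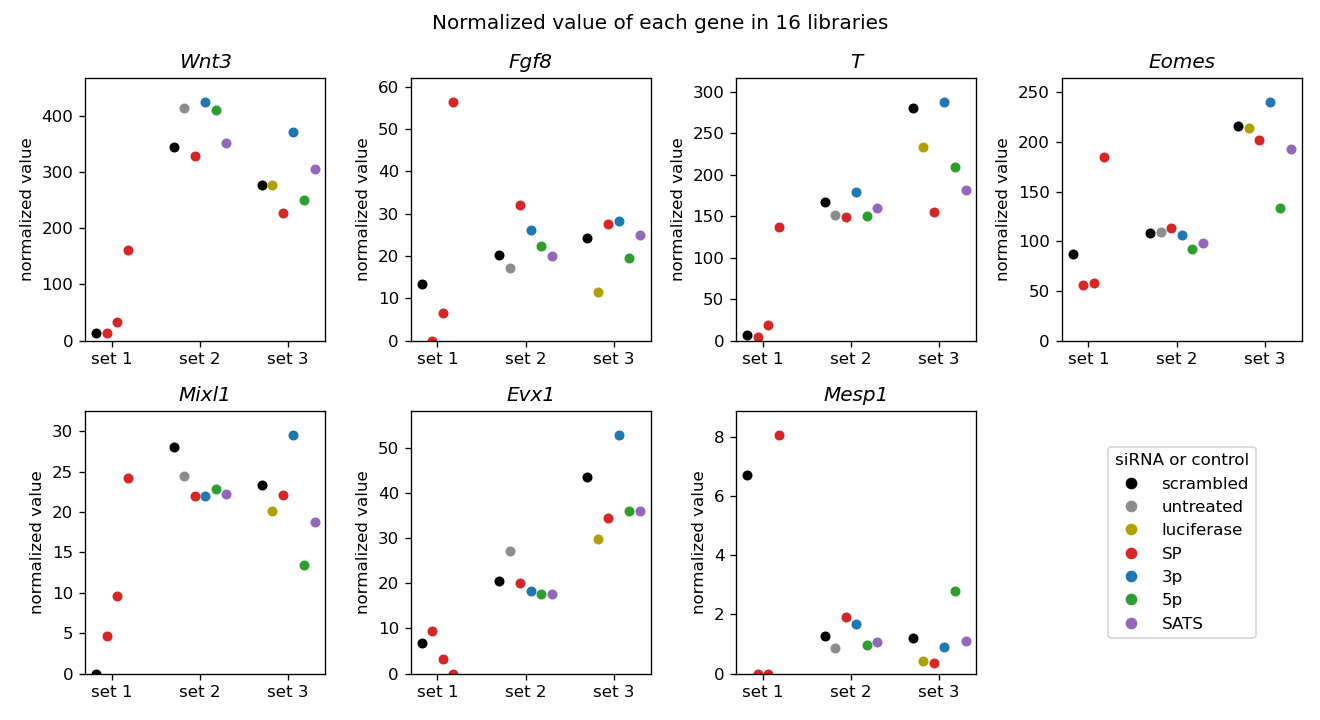
Normalized value (reads over the size factor, y axis from 0, a scale per gene) of the 7 genes in each of 16 libraries, grouped by replicate set on the x axis and coloured by siRNA or control, 1 point per library. *T*, *Eomes* and *Evx1* sit higher in set 3 than in set 2 and *Wnt3* lower, while in set 1 *T* and *Wnt3* lie near 0 except in SP 1c (137 and 161).

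The largest differences in these genes that passed a test lay between replicate sets and not between siRNAs. *Eomes*, *Evx1* and *T* were higher in set 3 than in set 2 and *Wnt3* was lower, in a fit over the 10 libraries of scr, SP, 3p, 5p and SATS with the siRNA group as a term. This comparison asks how far the genes differ between sets, beside which siRNA differences can be read. The table called 51.6% of all genes tested between these sets (limma, Benjamini-Hochberg adjusted p under 0.05), and 4 of the 7 genes were called, so the share of the 7 is near the background. What differs between the sets besides their number is not given in the sources used here.

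*Eomes*, a T-box factor of streak and definitive endoderm, had normalized values of 92.6 to 114 (median 107) in the 6 libraries of set 2 and of 134 to 240 (median 208) in the 6 of set 3. The sets did not overlap. Its log2 difference, set 3 against set 2, was 0.90 (SE 0.09, limma with Benjamini-Hochberg adjustment, adjusted p = 1.91e-06), and it was above 0 for each of the 5 siRNA groups. *Evx1*, a homeobox factor of the posterior streak, ranged from 17.6 to 27.1 (median 19.2) in set 2 and from 29.9 to 52.9 (median 36.1) in set 3, again without overlap. Its log2 difference was 1.05 (SE 0.13, adjusted p = 1.64e-05 from the same limma fit). *Eomes* and *Evx1* thus held the largest differences between sets 2 and 3 among the 7.

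*T*, the T-box factor that defines the streak and its mesoderm, ranged from 149 to 179 (median 156) in set 2 and from 155 to 288 (median 222) in set 3. Only the ends of these ranges overlapped, through SP 3 at 155. The log2 difference of *T* was 0.43 (SE 0.10, limma, adjusted p = 0.0021 by Benjamini-Hochberg). *Wnt3*, the Wnt ligand that starts the streak, moved the other way, from 329 to 425 (median 382) in set 2 to 228 to 372 (median 277) in set 3, with a log2 difference of −0.39 (SE 0.08, adjusted p = 8.16e-04 from the same fit). The ligand *Wnt3* and the factors *T*, *Eomes* and *Evx1* therefore differed between sets in opposite directions. *Mixl1* (−0.16, SE 0.16), *Fgf8* (0.05, SE 0.13) and *Mesp1* (−0.13, SE 0.33) did not pass the test, nor did *Stag1* (−0.01, SE 0.06). The same 4 genes were called, in the same directions, by the quasi-likelihood method of edgeR, run on recovered reads.

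**Figure D2:**
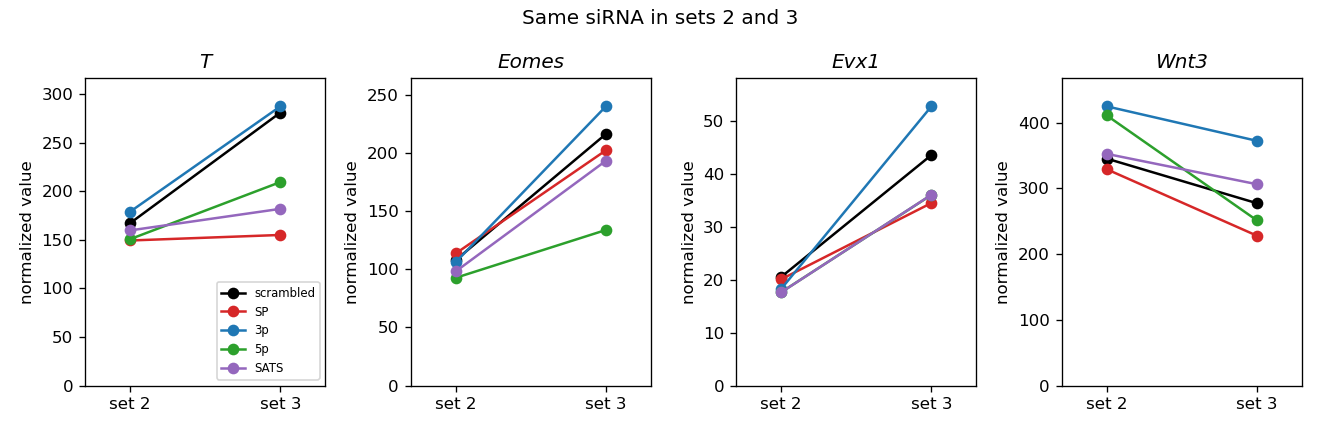
Normalized value (y axis from 0) of *T*, *Eomes*, *Evx1* and *Wnt3* in sets 2 and 3 (x axis), with 1 point per library and 1 line per siRNA group joining its library in set 2 to that in set 3. The lines of *T*, *Eomes* and *Evx1* go up and those of *Wnt3* go down for all 5 groups, and the line of *T* is flattest for SP (149 to 155).

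Markers of other cell types differed between the sets as well, again beside 51.6% of all genes called. Of the trophectoderm list (genes of the embryo's outer layer), 0 of 10 tested genes were higher and 9 were lower in set 3, with a median log2 difference of −0.92, and its summed value ranged from 23630 to 32590 in set 2 and from 5980 to 12310 in set 3. Of the fibroblast list, 0 of 10 were higher and 9 lower (median −1.19), with sums of 26000 to 34800 in set 2 and 9703 to 12260 in set 3. *Hand1* (−2.52), *Krt18* (−1.82), *Krt8* (−1.74) and *Tead4* (−0.92) led the first list, and the matrix genes *Col1a1* (−3.04), *Col1a2* (−2.40), *Col3a1* (−2.10) and *Fn1* (−1.20) the second. The primitive endoderm list had 2 higher and 5 lower of 12 (*Col4a1* −1.69, *Lama1* −1.13, *Sparc* −0.91, *Dab2* −0.83). The definitive endoderm list had 3 higher and 0 lower of 8 (*Trh* 1.91, *Otx2* 1.89, *Sox17* 0.66), and the neural list 4 higher and 2 lower of 9 (*Zic1* 1.42, *Sox3* 1.00, *Sox1* 0.72, *Nes* −0.39). In the pluripotency list 2 rose and 4 fell of 10, among them *Nanog* (−0.55), *Zfp42* (−0.80) and *Esrrb* (−0.80). The part of these genes in the set differences of *T*, *Eomes*, *Evx1* and *Wnt3* was not tested. The median of all 16490 genes was −0.01.

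The pathways that act on the streak differed between sets in both directions, in a comparison that called 51.6% of all genes, so the counts of called genes in these lists are read as descriptions. Of 41 other streak and mesoderm genes tested, 13 were higher and 13 lower in set 3 (median 0.09), among them *Zic2* (1.11) and the signalling genes *Nog* (−2.02), an inhibitor of BMPs, *Bmp4* (−1.42) and *Kdr* (−1.25). Nodal signalling had 8 higher and 5 lower of 18, with *Lefty1* (2.27) and *Lefty2* (0.86), which inhibit Nodal, and its co-receptor *Tdgf1* (0.87) higher and the convertase *Furin* (−0.94) lower. Wnt signalling had 5 higher and 14 lower of 30 (median −0.14), with the receptor *Fzd7* (0.72) higher and *Wls* (−1.11), which carries Wnt ligands to the cell surface, *Tcf7l2* (−0.86) and *Tcf7l1* (−0.67) lower. FGF signalling had 5 higher and 3 lower of 14, with the ligand *Fgf5* (2.04), *Spred1* (0.43) and *Etv5* (0.24) higher and *Etv4* (−0.30) lower. These are log2 differences, set 3 against set 2, from the limma fit, each with an adjusted p under 0.05.

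The siRNA comparisons ask whether knockdown of *Stag1*, or of one end of its transcript, moves the streak genes. None of the 7 genes was called by limma in any of them. For SP against scr over sets 1 to 3, 0 of 7 were called against 0% of all genes, without or with the replicate set as a block. For 3p the background was 0.00606% of all genes without and 0.285% with the block, for 5p 0.0121% and 2.37%, and for SATS 0% and 2.64%, with 0 of 7 genes called each time. For 5p against 3p it was 0% and 3.26%, and for all 8 knockdown libraries against all 4 controls of sets 2 and 3 it was 0% and 0.204%, again with 0 of 7 called. At an unadjusted p under 0.05, limma without the block gave 1 gene, *Fgf8* in the last comparison. With the block it gave *Wnt3* in 3p, *Eomes* in 5p, *T* in SATS, *T*, *Eomes* and *Wnt3* in 5p against 3p, and *Fgf8* in all knockdowns against all controls. Since the panel has 2 libraries per group, a difference that missed the threshold is not shown to be absent. The panel comparisons share their scr libraries.

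**Figure D3:**
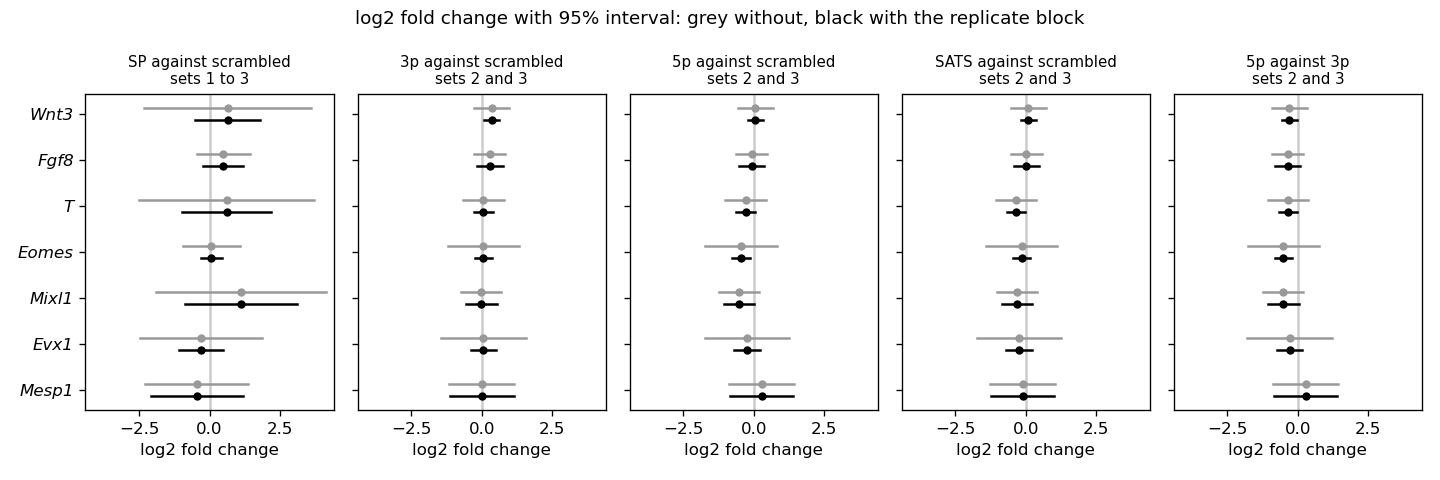
log2 fold change (x axis) of each of the 7 genes (y axis) in 5 comparisons, as a point with its 95% interval from limma, in grey without and in black with the replicate set as a block. With the block, the intervals that leave out 0 are those of *Wnt3* in 3p, *Eomes* in 5p, *T* in SATS and *T*, *Eomes* and *Wnt3* in 5p against 3p, and none of these genes passed the adjusted threshold in limma.

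*T* stood below scr in 3 of the 4 knockdown libraries of set 3. In set 2 its value was 167 in scr, 149 in SP, 179 in 3p, 151 in 5p, 160 in SATS and 152 in untreated cells. In set 3 it was 281 in scr, 155 in SP, 288 in 3p, 210 in 5p, 182 in SATS and 234 in luciferase. In set 2 the knockdown libraries stood at 89.3% to 107% of scr and the untreated library at 90.8%, and each of these ratios had a 95% counting interval that held 1 (exact, counting error only). In set 3, SP stood at 55.2% of scr (0.488 to 0.623 as a ratio), SATS at 64.7% (0.576 to 0.726), 5p at 74.5% (0.661 to 0.840) and the luciferase control at 83.2% (0.743 to 0.931), while 3p stood at 102%. The knockdown libraries of *T* were thus below scr in 6 of 8, and in set 3 so was a control without a *Stag1* siRNA. The log2 fold changes of *T* were −0.29 in 5p (SE 0.31, 0.15 with the block) and −0.35 in SATS (SE 0.31, 0.15 with the block), with adjusted p of 0.389 and 0.24 from limma with the block. Whether the SP difference of *T* is larger in set 3 than in set 2 was not tested.

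*Eomes* was lowest under 5p in both sets. Its value in set 2 was 108 in scr, 114 in SP, 106 in 3p, 92.6 in 5p, 98.1 in SATS and 109 in untreated cells. In set 3 it was 216 in scr, 202 in SP, 240 in 3p, 134 in 5p, 193 in SATS and 214 in luciferase. The 5p libraries stood at 85.9% and 61.8% of scr, and only in set 3 did the counting interval leave out 1 (0.534 to 0.714). The log2 fold change of 5p against scr was −0.45 (SE 0.54, or 0.14 with the block), with an adjusted p of 1.00 in limma without the block and 0.124 with it. Against 3p, *Eomes* in 5p was lower by a log2 difference of −0.52 (SE 0.54 without and 0.14 with the block). This difference had an adjusted p of 1.00 from limma, 0.0709 from limma with the block (95% interval −0.82 to −0.21), and 0.0439 from edgeR with the block, which put it at −0.57. That was the single call among the 7 genes in any siRNA comparison, beside 3.21% of all genes called by edgeR with the block. Fitted without the block, the limma difference was 0.070 without 3p of set 3 and −1.10 without 3p of set 2. Each of these fits set 5p of both sets against 3p of 1 set, and *Eomes* itself differed between sets. They therefore mix the set difference with that of the siRNAs. Within each set, 5p stood below 3p (92.6 against 106 and 134 against 240). The untreated (101%) and luciferase (99.1%) libraries stood at the scr level for *Eomes*.

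*Wnt3* was highest under 3p in both sets. In set 2 its value was 345 in scr, 329 in SP, 425 in 3p, 411 in 5p, 352 in SATS and 415 in untreated cells, and in set 3 it was 277 in scr, 228 in SP, 372 in 3p, 251 in 5p, 306 in SATS and 278 in luciferase. The 3p libraries stood at 123% and 134% of scr, and both counting intervals lay above 1. So did those of 5p (119%) and of untreated cells (120%) in set 2, and 5p in set 3 stood at 90.6%. The log2 fold change of *Wnt3* in 3p was 0.36 (SE 0.27, or 0.12 with the block), with an unadjusted p of 0.0106 and an adjusted p of 0.293 from limma with the block. The untreated control of set 2 therefore differed from scr by about as much as the 3p library of that set.

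*Mixl1*, a homeobox factor of streak mesoderm and endoderm, had 29 to 67 reads per library in sets 2 and 3. Its value in set 2 was 28.1 in scr and 22.0 to 24.5 in the 5 other libraries, and in set 3 it was 23.4 in scr, 22.1 in SP, 29.5 in 3p, 13.4 in 5p, 18.8 in SATS and 20.1 in luciferase. It was below scr in 7 of 8 knockdown libraries, and also in the untreated (87.2%) and luciferase (85.9%) controls. The 5p library of set 3 (57.3%) was the only one whose counting interval left out 1 (0.354 to 0.909). Its log2 fold change in 5p was −0.52 (SE 0.31, or 0.25 with the block, adjusted p = 0.337 from limma with the block).

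*Fgf8*, an FGF ligand made in the streak, did not pass the adjusted threshold in any siRNA comparison, and all knockdowns against all controls gave its lowest unadjusted p without the block. The 8 knockdown libraries of sets 2 and 3 had values of 19.4 to 32.1 (median 25.6), and the controls had 20.1 in scr and 17.1 in untreated cells of set 2 and 24.2 in scr and 11.6 in luciferase of set 3. These groups overlapped. The log2 difference of all knockdowns against all controls was 0.47 (SE 0.19), with an unadjusted p of 0.0295 and an adjusted p of 1.00 in limma, and 0.292 with the block. Against scr of the same set, 6 of 8 knockdown libraries were higher (80.3% to 159%), and the luciferase library, at 47.7%, was the lowest of all 12. The low luciferase value (27 reads) thus entered the control mean of *Fgf8*.

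*Evx1* stood below scr in 7 of 8 knockdown libraries, at 79.2% to 121%, and every one of these counting intervals held 1. In set 2 its value was 20.6 in scr, 17.6 to 20.1 in the 4 knockdowns and 27.1 in untreated cells. In set 3 it was 43.6 in scr, 34.6 in SP, 52.9 in 3p, 36.1 in 5p, 36.1 in SATS and 29.9 in luciferase, and luciferase (68.6% of scr, 0.501 to 0.934) was the lowest. Relative to scr, the other controls of *Evx1* (68.6% and 132%) thus spanned a wider range than its knockdowns. *Mesp1* had 1 to 6 reads per library, too few for a difference to be detectable.

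Over the 7 genes, 6 of the log2 differences of 5p against 3p were below 0, from −0.29 (*Evx1*) to −0.52 (*Eomes*), with *T* at −0.35, *Mixl1* at −0.51, *Fgf8* at −0.36 and *Wnt3* at −0.31, and *Mesp1* was at 0.28. The same libraries of 5p and 3p stand behind all of them. The summed value of the 7 genes was highest in 3p of both sets (778 in set 2 and 1011 in set 3). It was lowest in SP in set 2 (668) and in 5p in set 3 (666), where SP stood at 670.

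Among the other streak and pathway genes, limma made calls in the siRNA comparisons with the replicate block, and called 0 genes of any list without it. In 3p, where 0.285% of all genes were called with the block, 2 of 14 FGF genes and 0 genes of the other streak, Nodal and Wnt lists were called. In 5p (2.37% of all genes) 1 of 41 other streak and mesoderm genes, 1 of 18 Nodal, 2 of 30 Wnt and 1 of 14 FGF genes were called. In SATS (2.64%) these counts were 0 of 41, 2 of 18, 0 of 30 and 3 of 14, in 5p against 3p (3.26%) 2 of 41, 1 of 18, 5 of 30 and 4 of 14, and in all knockdowns against all controls (0.204%) 1 of 41, 1 of 18, 0 of 30 and 1 of 14. The lists were not tested against the background. The streak gene called in 5p was the Notch ligand *Dll1* (0.78, SE 0.13). The Nodal inhibitor *Lefty1* rose in 5p (0.65, SE 0.10) and in SATS (0.48, SE 0.10), where the convertase *Pcsk6* fell (−0.38, SE 0.09). Of the Wnt genes, the receptor *Fzd2* (−0.35, SE 0.08) and the kinase *Csnk1a1* (−0.97, SE 0.10) fell in 5p, and in 5p against 3p *Csnk1a1* (−0.90), *Fzd2* (−0.39), *Lef1* (−0.47) and *Rnf43* (−0.79) were lower and *Notum* (0.65) higher. Of the FGF genes, *Fgf4* (−0.88, SE 0.12) and its feedback inhibitor *Spry4* (−0.59, SE 0.11) fell in 3p, *Fgf5* (−0.68, SE 0.13) fell in 5p, and *Fgfr4* (−1.09), *Spry4* (−0.47) and *Etv4* (−0.37) fell in SATS. Of the genes that act near the streak, *Sp5*, a Wnt target, was lower (−0.61, SE 0.14) in 5p than in 3p, where *Lefty2* (0.70), *Fgf4* (0.97) and *Spry4* (0.58) were higher and *Fgf5* (−0.62) and *Fgfr1* (−0.35) lower. In all knockdowns against all controls *Lefty1* (0.50) was higher and *Bmp4* (−0.43) and *Etv4* (−0.33) were lower. Each of these had an adjusted p under 0.05 from limma with the block.

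Markers of other cell types were called in the same fits with the block. In 5p these were *Lama1* (0.71, primitive endoderm, 1 of 12), *Tfap2c* (−0.42, trophectoderm, 1 of 10), *Nes* (−0.54, neural, 1 of 9) and *Col1a1* (−0.75, fibroblast, 1 of 10), and in SATS *Krt8* (0.54, trophectoderm, 1 of 10). In 5p against 3p they were *Lama1* (0.80), *Nes* (−0.68) and *Col3a1* (0.61). Of the pluripotency list, *Fgf4* was called in 3p and in 5p against 3p. The definitive endoderm list had 0 of 8 genes called in any knockdown. Their part in the differences of *Eomes* and *T* was not tested. For SP over 3 sets, limma called 0 genes of the lists, and edgeR with the block, which called 0.413% of all genes, called *Tcf15*, *Fgf4*, *Nanog* and *Esrrb*, all lower.

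Set 1 stood apart in several streak genes already in its scr library. In scr of set 1, *T* had 1 read and *Wnt3* 2, values of 6.70 and 13.4, which are 2.99% and 4.30% of the mean of scr in sets 2 and 3. Over 11026 genes with a mean of at least 50 in sets 2 and 3, the median was 97.3%, and 179 genes (1.62%) stood at or under 10%. *Eomes* (13 reads) was nearer to the other sets, at 53.7%, and *Stag1* stood at 101%. *Fgf8* (2 reads, 60.4%) and *Evx1* (1 read, 20.9%) had too few reads to be placed against the other sets. *Mixl1* had 0 reads, which allows a value of up to 20.1 (3 reads), so its absence is not detectable at this depth.

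Within set 1 the streak genes stood apart in 1 library, SP 1c. *T* had 1 read in scr, 1 in SP 1a, 6 in SP 1b and 17 in SP 1c, or values of 6.70, 4.70, 19.3 and 137. *Wnt3* had 2, 3, 10 and 20 reads, or 13.4, 14.1, 32.2 and 161. *Eomes* had 13, 12, 18 and 23 reads, or 87.1, 56.4, 57.9 and 185. For these 3 genes SP 1c was the highest library, and its ratio to scr had a counting interval above 1, at 20.4 for *T* (3.20 to 854), 12.03 for *Wnt3* (2.92 to 106) and 2.13 for *Eomes* (1.03 to 4.57). *Fgf8* had 2, 0, 2 and 7 reads (4.21 in SP 1c, 0.801 to 41.5). *Mixl1* had 0, 1, 3 and 3 reads, at or under the limit of 3 in each library, and *Evx1* had 1, 2, 1 and 0. Of the 7, 5 had at least 3 reads in SP 1c or scr, and 4 were at least 2-fold higher in SP 1c. *T*, *Wnt3*, *Fgf8* and *Mixl1* had fewer than 3 reads in scr and met this limit only through SP 1c. Genes that enter in this way tend to look higher there, so the count is a description and cannot be weighed against the share of all genes. Among all genes with at least 3 reads in SP 1c or scr, 10.6% were at least 2-fold higher in SP 1c and 8.71% at least 2-fold lower. The shares were 5.46% higher and 5.94% lower in SP 1a, and 6.05% and 7.10% in SP 1b.

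**Figure D4:**
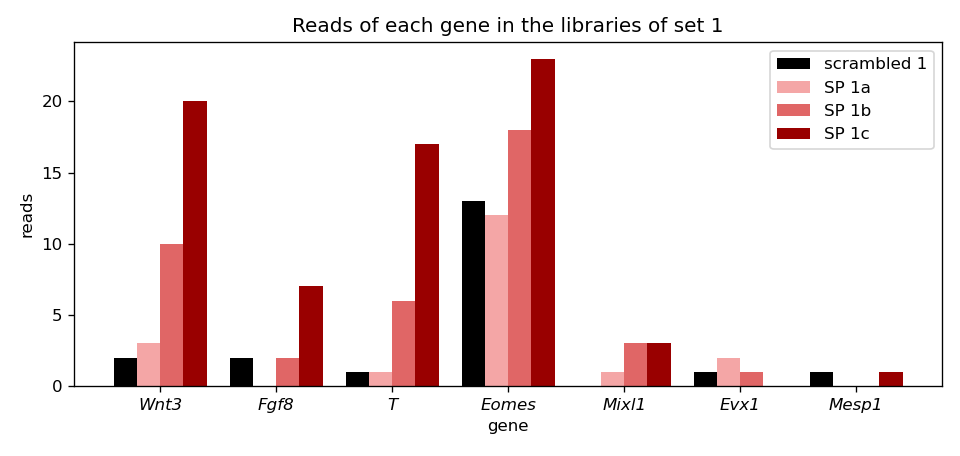
Recovered reads (y axis, bars from 0) of each of the 7 genes (x axis) in the 4 libraries of set 1, the scr library in black and SP 1a, 1b and 1c in shades of red. SP 1c has the most reads of *Wnt3*, *T*, *Eomes* and *Fgf8* (20, 17, 23 and 7), in the library with the fewest reads in all.

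With 1 scr library in set 1, the differences of SP 1a to 1c from it have no replicate check. SP 1c also had the lowest summed value of the pluripotency list in set 1 (39820, against 69290 in scr) and the lowest of primitive endoderm (3439, against 9730), and the highest of trophectoderm (4035, against 1292) and neural genes (2472, against 569). *Stag1* in SP 1c (32.8% of scr) was close to SP 1b (31.1%), and the part of these other genes in the high values of SP 1c was not tested.

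The SP comparison over 3 sets rested on set 1. With SP 1a, 1b and 1c averaged to 1 sample, the log2 fold change was 0.60 for *T* (SE 1.31), 0.64 for *Wnt3* (SE 1.25), 0.06 for *Eomes* (SE 0.43), 1.12 for *Mixl1* (SE 1.27), 0.48 for *Fgf8* (SE 0.40), −0.31 for *Evx1* (SE 0.91) and −0.46 for *Mesp1* (SE 0.77), each with an adjusted p of 1.00 from limma. In sets 2 and 3 alone, in the fit of the panel, SP gave −0.51 for *T*, −0.18 for *Wnt3*, −0.01 for *Eomes* and −0.21 for *Mixl1*, each opposite in sign. edgeR on the recovered reads with the block gave −0.45 for *T* (adjusted p = 0.421 with Benjamini-Hochberg adjustment) and −0.11 for *Wnt3*. The positive SP values of *T*, *Wnt3* and *Mixl1* over 3 sets are therefore found in set 1 and not in sets 2 and 3. The size of the *Mixl1* value depended on the pseudocount, the amount added to each value before taking log2, since scr of set 1 had 0 reads. With a pseudocount of 0.1 in place of 1 it was 2.19, and with 10 it was 0.29. Within set 1, the positive values of *T* and *Wnt3* leaned on SP 1c, and that of *Mixl1* did so less. Without SP 1c, *T* was at −0.087, *Eomes* at −0.21, *Wnt3* at 0.13 and *Mixl1* at 0.87. All of these values also depended on the single scr library of set 1. Without it, *T* was at −1.004, *Eomes* at −0.21, *Wnt3* at −0.83 and *Mixl1* at −0.46. That fit sets SP of 3 sets against scr of sets 2 and 3, so it mixes the set difference with that of the siRNA.

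Within sets, the streak genes did not follow each other closely. With the set mean subtracted, over the 12 libraries of sets 2 and 3, Pearson's r of log2(value + 1) was 0.556 between *T* and *Wnt3*, 0.353 between *T* and *Eomes* and 0.344 between *Eomes* and *Wnt3*, given as descriptions over libraries that share siRNA groups. Of 11026 genes, 283 had a higher r with *T* than *Wnt3* had, and 171 a higher r with *Wnt3* than *T* had. *T* and *Wnt3* were thus nearer to each other than most genes were to either. For *Eomes* and *Wnt3*, 944 genes had a higher r with *Wnt3* than *Eomes* had. The genes most like *T* were *Dhdds* (0.898), *Dpp9* (0.890) and *Tbc1d22a* (0.876). Those most like *Eomes* were *Aim1* (0.964), *Lrrc8c* (0.958) and *Nefm* (0.956), and those most like *Wnt3* were *Tnfrsf19* (0.912), *Bcl6b* (0.886) and *AU040320* (0.855). These genes were picked as the highest among 11026 over only 12 libraries, and such picking by itself gives high values of r. How high r would reach for unrelated genes was not tested, so they are not read as partners of the streak genes.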

How the data were processed

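RNA-seq of serum-grown E14 mESCs was analysed in 16 of 18 libraries, and the 2 from 2i cultures were left out because they carry no siRNA. Per the methods, the authors used hisat2 and the mm10 genome, then featureCounts for reads per gene, and scaled each library by a DESeq2 (version 1.14.1) size factor. The deposited values are therefore a normalized signal and not counts. Dividing each column by its smallest non-zero value gave whole reads (within 0.01) for 100% of the values. A second table, CPM of set 1 made by the authors with edgeR (version 3.16.5), holds 1 of the 7 genes and was not used.

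The deposited signal was taken as log2(value + 1), genes whose values summed to under 10 in a fit were dropped, and limma 3.58.1 (lmFit, eBayes with trend, R 4.3.3) was applied, and p-values were adjusted by Benjamini-Hochberg over all genes fitted. Calls are at an adjusted p under 0.05. On this scale the change of low genes is understated. SP 1a to 1c were averaged to 1 sample. Alternatives were the replicate set as a block, quasi-likelihood tests of edgeR 4.0.16 on recovered reads, other pseudocounts, filters and scaling, and each library left out. Deviations of same-numbered libraries from their group means correlated at 0.80 (0.772 to 0.823) in the SP fit and 0.856 (0.809 to 0.934) in the panel, and the labels number the sets alike, so the numbers were taken to pair the samples. Intervals of ratios are exact binomial, at 95%, and like the limit of 3 reads cover counting error only, since PCR reads are not independent molecules. The fits were run on simulated data in which only genes with many reads were changed, all by 1 fixed factor. Smaller changes and genes with few reads are not covered by it, and its outcome is not given here.

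Genes named are the 7, *Stag1*, 4 pluripotency genes, up to 4 called genes per list and comparison by lowest p, and the 3 genes most like each member with a mean value of at least 50. Not every gene this rule names is reported here. The members and lists were chosen with earlier results of these data known.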

Additional observations from a re-analysis of the deposited data

Results flagged for a closer look

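Among the 5 SP libraries, *Mesp1* stood at 8.05 in SP 1c, far from the other 4, and this value is 1 read. Chance alone would mark about 1 in 20 groups of libraries in this way if all values had the same spread. Here 1 read is worth 8.05 in SP 1c and 0.368 in SP 3, so that rate does not hold.

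For a pair of genes, every SP library of set 1 stood above scr while those of sets 2 and 3 stood below it. The mean value of SP 1a to 1c exceeded scr 1 by 12.8 for *Mixl1* (1 to 3 reads against 0) and by 55.7 for *Wnt3* (3 to 20 reads against 2). *Mixl1* stood at 78.4% of scr in SP 2 and 94.2% in SP 3, and *Wnt3* at 95.3% and 82.2%. The difference between set 1 and the other sets was not tested.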

How the results depend on the processing

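Depth limited the set 1 values: scr of set 1 held 1 read of *T*, 2 of *Wnt3* and 1 of *Evx1*, so 1 read more or less changes them. Deviations of same-numbered libraries correlated, so the replicate block is a paired fit, and with the block limma called 0 of 7 genes in all 6 siRNA comparisons, as without it. In 5p against 3p, edgeR with the block called 1 gene (*Eomes*), the only change among the counts of the 7. Over all genes, limma without the block, limma with it and edgeR with it called 0, 0 and 66 genes in SP, 1, 47 and 50 in 3p, 2, 391 and 397 in 5p, 0, 436 and 550 in SATS, 0, 537 and 529 in 5p against 3p, and 0, 34 and 34 in all knockdowns against all controls. Leaving out 1 library took the count of 5p from 2 to 1 and that of all knockdowns from 0 to 1. The calls of *T*, *Eomes*, *Evx1* and *Wnt3* between sets 2 and 3 held under every alternative tried (pseudocounts of 0.1 and 10, other filters, TMM scaling, edgeR, no siRNA term and each library left out). *Mesp1* gave no value with a summed value minimum of 100 or without scr 1.

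These log2 fold changes reversed, and no gene among them was called. In SP, edgeR without the block gave −0.51 for *T*, −0.081 for *Eomes*, −0.17 for *Mixl1* and −0.15 for *Wnt3*, and with the block −0.45, −0.027, −0.15 and −0.11. Sets 2 and 3 alone gave −0.51, −0.011, −0.21 and −0.18 in that order. Summed reads of SP 1a to 1c gave −0.037 for *Eomes*. In 3p, a pseudocount of 0.1 gave −0.0097 for *Mesp1*, and edgeR gave 0.0089 for *Mixl1* without and 0.0099 with the block.

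Leaving out 1 library at a time (1a, 1b and 1c singly was chosen after the data were seen) gave these ranges for the log2 fold changes that changed sign. In SP they were −1.004 to 1.59 for *T*, −0.25 to 0.44 for *Eomes*, −0.46 to 1.98 for *Mixl1*, −0.31 to 0.67 for *Fgf8*, −0.83 to 1.46 for *Wnt3* and −0.98 to 0.49 for *Evx1*. The lowest values of *T*, *Mixl1*, *Wnt3* and *Evx1* came without scr 1. Without SP 1c, *T* (−0.087), *Eomes* (−0.21) and *Fgf8* (−0.31) reversed. In 3p they were −0.31 to 0.44 for *T*, −0.52 to 0.65 for *Eomes*, −0.21 to 0.20 for *Mixl1*, −0.24 to 0.26 for *Mesp1* and −0.69 to 0.80 for *Evx1*. In 5p they were −0.66 to 0.087 for *T*, −0.95 to 0.045 for *Eomes*, −0.20 to 0.050 for *Fgf8*, −0.30 to 0.41 for *Wnt3*, −0.19 to 0.76 for *Mesp1* and −0.76 to 0.29 for *Evx1*. In SATS they were −0.72 to 0.027 for *T*, −0.65 to 0.35 for *Eomes*, −0.13 to 0.17 for *Fgf8*, −0.071 to 0.24 for *Wnt3* and −0.76 to 0.29 for *Evx1*. In 5p against 3p they were −1.10 to 0.070 for *Eomes*, −0.66 to 0.047 for *Wnt3*, −0.20 to 0.75 for *Mesp1* and −1.03 to 0.45 for *Evx1*. In all knockdowns against all controls they were −0.30 to 0.028 for *Eomes*, −0.059 to 0.13 for *Wnt3* and −0.28 to 0.073 for *Evx1*. Between sets 2 and 3 they were −0.013 to 0.11 for *Fgf8* and −0.41 to 0.11 for *Mesp1*. Others kept their sign in these fits but moved by over 1.5 times. They were *Mesp1* in SP (−1.09 without SP 1c to −0.0375 without SP 3), *Wnt3* (0.20 to 0.52) and *Fgf8* (0.16 to 0.41) in 3p, *Mixl1* in 5p (−0.89 to −0.16) and in SATS (−0.44 to −0.19), and *Mixl1* (−0.88 to −0.15) and *T* (−0.69 to −0.0107) in 5p against 3p. In all knockdowns against all controls they were *Fgf8* (0.28 to 0.61), *Mesp1* (0.092 to 0.33), *Mixl1* (−0.24 to −0.075) and *T* (−0.30 to −0.0102), and between sets 2 and 3 *Mixl1* (−0.30 to −0.0195). The cause of these changes was not tested, but without a block, leaving a library out of 1 set also shifts the balance of the sets between the groups.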
